A study of Mus musculus with 5 samples.

Results

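The genes described here make NAD from tryptophan in the liver, together with the enzymes that recycle or clear nicotinamide. The 10 genes, Tdo2, Afmid, Kmo, Kynu, Haao, Acmsd, Qprt, Nadsyn1, Nampt and Nnmt, were chosen by name, with earlier results of these data known. All 10 have a row among the 13966 gene symbols of the table. RNA was sequenced from hepatocytes of ICR mice, an outbred stock, after the mice had received a fluorescent probe of fatty acid oxidation and the cells had been sorted by its signal. The groups were bezafibrate negative, bezafibrate positive, bezafibrate high, control positive and control negative, named for the treatment and for the sort gate, with 1 library each. Bezafibrate activates the peroxisome proliferator-activated receptors, or PPARs, which switch on fatty acid oxidation genes. The sources used here give no age, dose or number of mice per library, and do not say how many livers gave the gates of each treatment. Treatment and mouse therefore cannot be told apart, and no difference below has a replicate check.

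In this pathway Tdo2 opens the indole ring of tryptophan and Afmid releases kynurenine. Kmo, Kynu and Haao then carry kynurenine to an unstable semialdehyde that stands at a branch. Left alone, the semialdehyde closes to quinolinate, which Qprt turns into a nucleotide that ends as NAD through Nadsyn1. Acmsd, the branch enzyme away from NAD, removes a carboxyl group from the same semialdehyde and sends it towards glutarate and full oxidation. Nampt rebuilds NAD from nicotinamide, and Nnmt methylates nicotinamide so that it leaves the cell. The liver is the main site of this synthesis in mammals, and in rats PPAR-activating drugs are known to lower Acmsd.

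Recovered depth lay between 5056884 and 7146578 reads per library. The ribosomal RNA precursor gene Rn45s held 10.5%, 18.5% and 13.5% of reads in bezafibrate negative, positive and high, against 34.8% and 36.3% in control positive and negative. Albumin RNA held 7.58%, 5.10% and 5.99% in the same bezafibrate libraries, against 2.12% and 2.17% in the control ones. The 10 genes together held 0.147%, 0.146% and 0.152% of reads in the bezafibrate libraries, against 0.0903% and 0.0910% in control positive and negative. Of reads outside Rn45s the shares were 0.165%, 0.179% and 0.176%, against 0.138% and 0.143%. All 12 listed hepatocyte markers had reads in every library. Summed values of markers lay between 6.46 and 11.9 for Kupffer cells and macrophages (8 of 12 with a row) and between 19.7 and 36.5 for sinusoidal endothelium (9 of 10). They lay between 37.0 and 51.7 for cholangiocytes (5 of 8) and were at most 1.03 for lymphocytes and neutrophils (1 of 11). Stellate cell markers, mostly Reln, summed to 36.9, 33.4 and 48.6 in the bezafibrate libraries, against 118 and 110 in control positive and negative (10 of 10). Reln alone had 29.46, 28.53 and 29.85, against 105.8 and 93.42, and the other 9 summed to 7.47, 4.89 and 18.8, against 11.9 and 16.2. The part of RNA make-up and of other cells in the differences below was not tested. In RNA from pooled cells, fewer cells of a type and less RNA per cell cannot be told apart.

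The promoters of Tdo2, Afmid and Qprt, which were at least 1.5-fold higher under bezafibrate in at least 1 gate, are shown first, as the stretches of DNA next to the differences described below. Each runs from 250 bases before the RefSeq start to 50 after it, 5′ to 3′ on the strand of the gene, for GRCm38.p6. RefSeq starts can differ from those of the GENCODE genes whose coordinates are given below. By the GENCODE coordinates the whole Tdo2 window, with its marked letters, and most of the Qprt window lie inside the gene. Capitals mark TGACCT, which is AGGTCA read on the opposite strand. AGGTCA is the half-site of nuclear receptors such as the PPARs and HNF4.
Tdo2, chr3:81975679-81975978, minus strand: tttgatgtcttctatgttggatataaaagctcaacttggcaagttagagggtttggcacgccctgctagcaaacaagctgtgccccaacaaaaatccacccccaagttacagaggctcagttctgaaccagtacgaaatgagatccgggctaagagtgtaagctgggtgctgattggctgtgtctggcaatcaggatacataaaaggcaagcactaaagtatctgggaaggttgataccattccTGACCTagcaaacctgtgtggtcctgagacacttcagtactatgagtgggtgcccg
Afmid, chr11:117825669-117825968, plus strand: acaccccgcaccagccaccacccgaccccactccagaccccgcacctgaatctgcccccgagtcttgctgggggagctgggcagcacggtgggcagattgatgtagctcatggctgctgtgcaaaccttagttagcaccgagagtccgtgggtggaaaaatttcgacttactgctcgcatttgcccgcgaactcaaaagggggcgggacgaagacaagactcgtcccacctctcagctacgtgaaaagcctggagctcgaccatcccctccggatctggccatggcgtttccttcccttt
Qprt, chr7:127121980-127122279, minus strand: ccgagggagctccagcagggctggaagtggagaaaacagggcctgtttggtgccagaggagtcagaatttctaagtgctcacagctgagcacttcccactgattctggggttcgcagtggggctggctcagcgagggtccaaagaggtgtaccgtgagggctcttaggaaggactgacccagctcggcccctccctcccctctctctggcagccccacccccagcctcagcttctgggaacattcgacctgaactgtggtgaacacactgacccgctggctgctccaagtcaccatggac
The promoters of 7 of the 10 genes were searched, and those of Acmsd, Kynu and Nnmt were not used here. Both strands were searched for AGGTCA, for the PPAR response element pattern, which is AGGTCA repeated with any 1 base between the copies, for the HNF1 half-site GTTAAT and for the C/EBP pattern TTGCNNAA. The first pattern lies within the PPAR element. AGGTCA was present in 3 of the 7, with its first base 6 bases before the start in Tdo2, 58 before it in Haao and 151 before it in Nampt. Haao also held GTTAAT, 41 bases before the start. Afmid, Qprt, Kmo and Nadsyn1 held none of the patterns in this window. Over 32851 promoters of the same length, AGGTCA was present in 16.3%, the PPAR element in 0.0396%, GTTAAT in 7.1% and TTGCNNAA in 10.8%. A match describes these letters and shows no binding.

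The entry to the pathway was higher in the bezafibrate libraries. Values with no other unit are normalised read counts as the authors scaled them, and folds are of bezafibrate over control in the same gate unless gates are compared. Tdo2, tryptophan dioxygenase, whose activity sets how much tryptophan enters (GRCm38 chromosome 3, 81957090 to 81976202), was at 616.4, 608.2 and 614.1 normalised reads in bezafibrate negative, positive and high, against 275.5 and 296.5 in control positive and negative. All 3 bezafibrate libraries lay above both control libraries, and the 3 differed from each other by no more than counting error. In the negative gate Tdo2 was 2.08-fold higher with bezafibrate (95% counting interval 1.96 to 2.21), and in the positive gate it was 2.21-fold higher (2.07 to 2.35). On the log2 scale these differences were 1.05 and 1.14, where 10% of all genes analysed had differences above 1.01 and 0.77. Afmid, the formamidase of the next step (chromosome 11, 117825924 to 117839908), had 134.5, 121.5 and 136.2 in the bezafibrate libraries, against 72.43 and 73.91 in control positive and negative. That is 1.82-fold higher for the negative gate (1.61 to 2.06) and 1.68-fold for the positive one (1.47 to 1.91). Afmid shares 67.3% of its exon bases with the gene model Gm20708 on the same strand and 3.57% with Tk1 on the other, so its reads are uncertain.

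**Figure D1:**
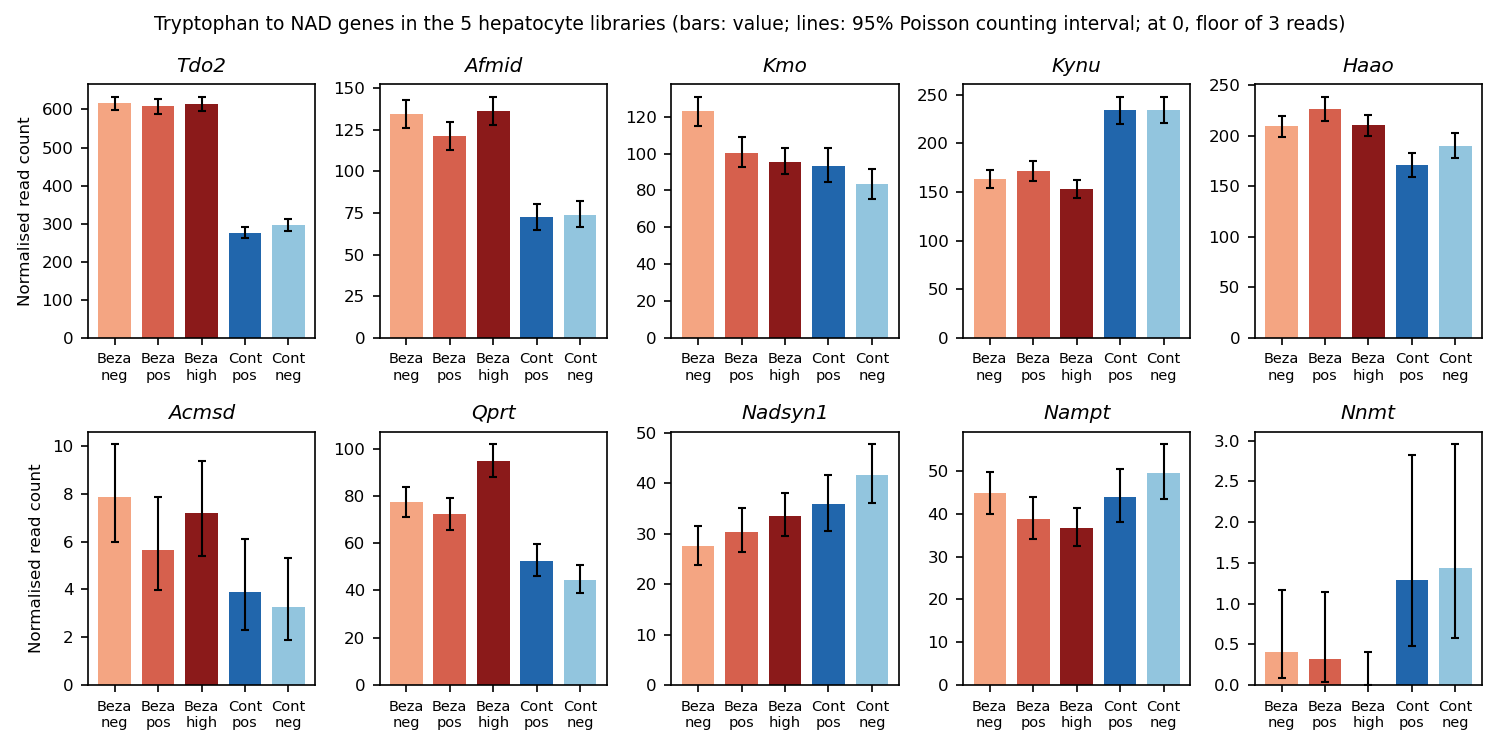
Normalised read counts of the 10 genes in the bezafibrate (Beza) negative, positive and high and the control (Cont) positive and negative libraries, with 1 bar per library and 95% Poisson counting intervals; at 0 reads the line ends at the value of 3 reads. Tdo2 and Afmid stand higher in all 3 bezafibrate libraries, Kynu stands lower there, and Nnmt has at most 7 reads in any library.

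The middle steps differed among themselves. Kmo, the monooxygenase of the outer mitochondrial membrane (chromosome 1, 175620381 to 175662116), had 123.2, 100.6 and 95.53 in bezafibrate negative, positive and high, against 93.34 and 83.36 in control positive and negative. The bezafibrate negative library stood above the others, and the other 4 followed in steps within counting error. The fold of bezafibrate over control was 1.48 in the negative gate (1.31 to 1.66) and 1.08 in the positive gate (0.952 to 1.22). Scaled to totals without Rn45s, the positive gate value was 0.995.

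Kynu, the kynureninase that cleaves hydroxykynurenine (chromosome 2, 43555329 to 43682715), went the other way. It had 163.3, 171.5 and 152.8 in bezafibrate negative, positive and high, against 234.1 and 234.5 in control positive and negative. All 3 bezafibrate libraries lay below both control libraries. The fold was 0.696 in the negative gate (0.642 to 0.756) and 0.732 in the positive gate (0.673 to 0.797), short of 1.5-fold in both. It stayed below 1 under every scaling tried, between 0.582 and 0.845 over both gates.

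Haao, the iron dioxygenase that makes the branch-point semialdehyde (chromosome 17, 83831156 to 83847963), differed little. It had 209.4, 226.5 and 210.5 in bezafibrate negative, positive and high, against 171.2 and 189.9 in control positive and negative. The fold was 1.10 in the negative gate (1.02 to 1.2) and 1.32 in the positive gate (1.21 to 1.44). In the negative gate its direction depended on scaling, with 0.922 without Rn45s. Its transcript of 1381 bases is among the shortest 20% of genes, whose median log2 difference was 0.37 in the negative and 0.26 in the positive gate, while the longest 20% had -0.14 and -0.09. The part of transcript length in these differences was not tested. Nnmt belongs to the same length class, and the other 8 genes belong to classes with medians between -0.06 and 0.08.

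At the branch both arms had higher values under bezafibrate in the negative gate. Acmsd, the decarboxylase that leads away from NAD (chromosome 1, 127729413 to 127767978), had 7.865, 5.674 and 7.195 in bezafibrate negative, positive and high, against 3.880 and 3.285 in control positive and negative. These rest on 59, 36 and 54 reads, against 18 and 16. The bezafibrate libraries stood above the control ones without overlap, but the step between bezafibrate positive and control positive was within counting error. The fold was 2.39 in the negative gate (1.36 to 4.46) and 1.46 in the positive gate (0.809 to 2.74). Over reads summed by treatment, a choice made after the values were seen, it was 1.95 (1.34 to 2.92), with 149 against 34 reads. Acmsd shares 3.46% of its exon bases with the antisense gene 2900009J06Rik, and reads there are uncertain because counting by strand is not stated. The mean of Acmsd, 5.58, passed the minimum of 5.02 set for the genes analysed only through the bezafibrate libraries.

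Qprt, the transferase that commits quinolinate to NAD (chromosome 7, 127107114 to 127122226), had 77.31, 72.19 and 94.87 in bezafibrate negative, positive and high, against 52.60 and 44.55 in control positive and negative. The high gate stood above the other libraries beyond counting error. The fold of bezafibrate over control was 1.74 (1.48 to 2.04) for the negative and 1.37 (1.17 to 1.61) for the positive gate. Per kilobase of transcript, Qprt exceeded Acmsd in every library. In bezafibrate negative, positive and high the ratio of Qprt to Acmsd was 13 (9.96 to 17.3), 16.9 (12 to 24.4) and 17.5 (13.2 to 23.5), against 18 (11.1 to 30.8) and 18 (10.8 to 32) in control positive and negative. These intervals overlapped, so a difference between treatments was not detectable at this depth for Qprt and Acmsd. The ratio of Haao to Acmsd was 52.4 (40.4 to 69.1) in bezafibrate negative, against 114 (69.7 to 200) in control negative, without overlap. In bezafibrate positive it was 78.5 (56.5 to 113), against 86.8 (54.6 to 147) in control positive, and in bezafibrate high it was 57.6 (43.9 to 77). These pairs were chosen after the values were seen, and such ratios do not depend on how libraries are scaled.

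The last step and the nicotinamide genes were level or lower. Nadsyn1, the NAD synthetase (chromosome 7, 143795584 to 143822849), had 27.46, 30.42 and 33.58 in bezafibrate negative, positive and high, against 35.79 and 41.68 in control positive and negative. The groups did not overlap, but each step in the order of the 5 libraries was within counting error. The fold was 0.659 in the negative gate (0.540 to 0.804) and 0.850 in the positive gate (0.687 to 1.05). Nampt, the rate-limiting enzyme of NAD salvage (chromosome 12, 32819545 to 32853349), had 44.79, 38.77 and 36.77 in the bezafibrate libraries, against 43.98 and 49.69 in control positive and negative. The groups overlapped, with folds of 0.901 (0.762 to 1.07) and 0.882 (0.729 to 1.07), and scaling to column totals turned them to 1.06 and 1.02.

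Nnmt, the nicotinamide methyltransferase (chromosome 9, 48591877 to 48605153), was close to the detection limit. It had 0.400, 0.315 and 0 in bezafibrate negative, positive and high, against 1.29 and 1.44 in control positive and negative. These are 3, 2 and 0 reads, against 6 and 7. The 0 allows a value of up to 0.400, that of 3 reads. Both intervals of the fold per gate held 1, with 0.278 (0.0464 to 1.22) in the negative and 0.244 (0.0241 to 1.36) in the positive gate. Over reads summed by treatment, 5 against 13, the fold was 0.171 (0.0478 to 0.512). Nnmt did not reach the minimum mean, and the other 9 genes did.

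**Figure D2:**
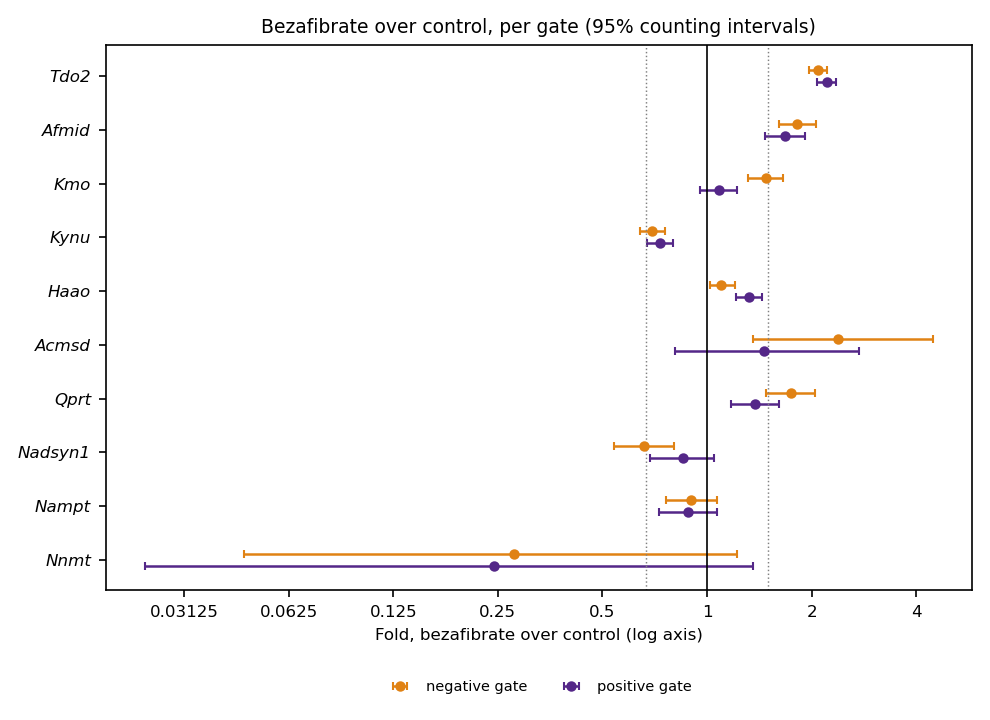
Fold of bezafibrate over control on a log axis for each of the 10 genes, in the negative and the positive gate, with 95% counting intervals; the solid line marks 1 and the dotted lines 1.5-fold in each direction. Tdo2 and Afmid lie to the right of the dotted line at 1.5 in both gates, at 1.68-fold or more, and Kynu lies below 1 in both.

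Counted together, 4 of the 10 genes were at least 1.5-fold higher in bezafibrate negative than in control negative and 1 was lower, beside 22.6% and 17.5% of the 8973 genes analysed. The 4 were Tdo2, Afmid, Acmsd and Qprt, and the 1 was Nnmt. Nnmt is not among those 8973 genes, and in either gate its call rests on at most 7 reads per library. Both intervals of its fold held 1. Acmsd is among the 8973 only through its values in the bezafibrate libraries. The 1.5-fold limit was set on values with the pseudocount of 1.0035 added, on which Nadsyn1, at -0.58 on the log2 scale, fell just short although its plain fold was 0.659. In the positive gate 2 were higher, Tdo2 and Afmid, and 1 was lower, Nnmt, against 15.7% and 11.6% of all genes. Counts this close to the shares of all genes say little about the pathway as a group. The median difference of log2(value + 1.0035) over the 10 was 0.35 in the negative and 0.25 in the positive gate, beside 0.02 and 0.00 for all genes analysed. All 3 bezafibrate libraries lay above both control libraries for 6 of the 10 genes and below them for 3, against 35.7% and 33.8% of all genes. Scaling by column totals moved the median of all genes to 0.25 and 0.20, and totals without Rn45s moved it to -0.22 and -0.11. The split of all genes moved with them. With column totals 32.2% were higher and 10.4% lower for the negative gate, and 25% and 5.7% for the positive gate. Without Rn45s these were 14.4% and 29.1%, and 12.0% and 16.2%. Of the 10 genes, 5 were then higher and 1 lower for either gate with column totals. Without Rn45s 3 were higher and 3 lower for the negative gate, and 2 and 1 for the positive gate.

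The entry enzyme took a larger share of the pathway under bezafibrate. Per kilobase of principal transcript, Tdo2 had 180, 177 and 179 in bezafibrate negative, positive and high, against 80.3 and 86.4 in control positive and negative. Kynu had 59.7, 62.7 and 55.9, against 85.7 and 85.8 on the same scale. Of the summed value per kilobase of the 10 genes, Tdo2 held 32.3%, 32.2% and 32.5% in the bezafibrate libraries, against 19.7% and 20.4% in control positive and negative. Kynu held 10.7%, 11.4% and 10.1%, against 21% and 20.3%. Haao held 27.3%, 29.8% and 27.7%, against 30.4% and 32.5%, and so stood below Tdo2 in each bezafibrate library and above it in each control library. Acmsd held at most 0.521% and Nnmt at most 0.325% in any library. Levels of different genes depend on the transcript length assumed, and Kynu would be lower with all its exons merged, at 34.2, 35.9 and 32, against 49 and 49.1 per kilobase.

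Ratios inside a library are free of the choice of scaling. The ratio of Tdo2 to Kynu per kilobase in bezafibrate negative, positive and high was 3.01 (2.82 to 3.20), 2.83 (2.64 to 3.02) and 3.20 (3 to 3.42). It was 0.937 (0.864 to 1.02) in control positive and 1.01 (0.931 to 1.09) in control negative. The bezafibrate ratio was thus 2.99-fold that of control (2.70 to 3.30) between negative gates and 3.01-fold (2.71 to 3.35) between positive gates. Relative to Kynu, Afmid was 2.61-fold (2.26 to 3.02) and 2.29-fold (1.97 to 2.67) higher in bezafibrate, and Nadsyn1 had 0.946 (0.767 to 1.17) and 1.16 (0.928 to 1.45). Kynu was taken as the denominator after the values were seen.

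**Figure D3:**
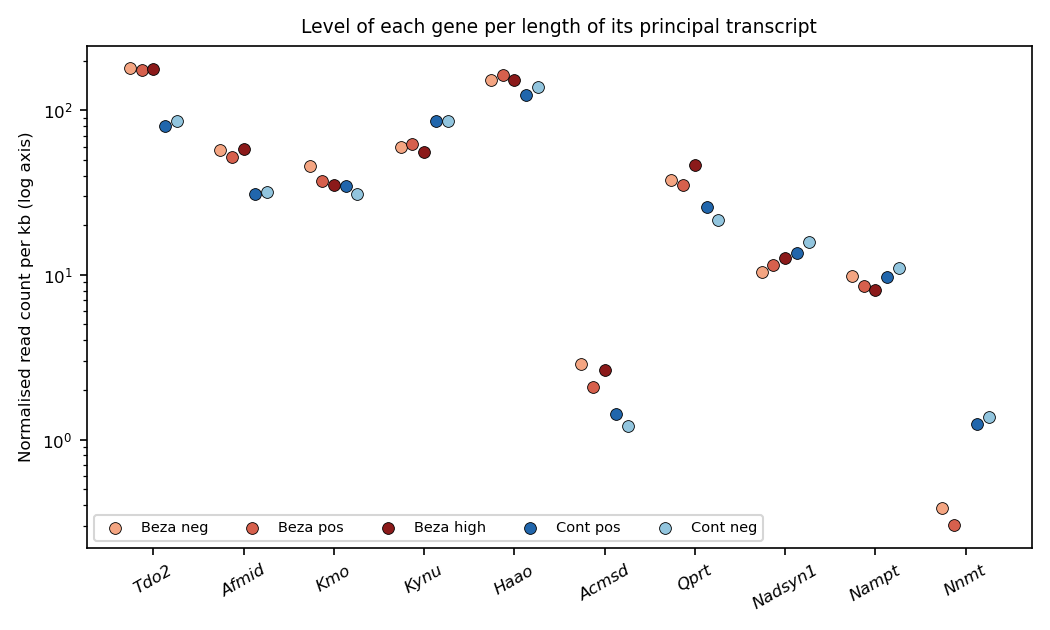
Normalised read count per kilobase of principal transcript, on a log axis, for the 10 genes in the 5 libraries; the value of 0 for Nnmt in bezafibrate high cannot be drawn. Tdo2 and Haao are the highest in the bezafibrate libraries, at 152 or more, and Acmsd and Nnmt are the lowest throughout, at 2.89 or less.

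Between the gates of 1 treatment the genes differed little. Between the control gates 0 of the 10 genes reached 1.5-fold in either direction, beside 1.77% of all genes (higher) and 1.6% (lower). Between bezafibrate positive and negative, 0 of the 10 did, against 2.06% higher and 2.64% lower. Between bezafibrate high and positive 0 did, against 0.802% and 0.97%, and between bezafibrate high and negative 0 did, against 1.5% and 2.28%. A count of 0 among 10 genes is near those shares. With a pseudocount 0.5 times as large, Nnmt alone reached 1.5-fold lower in bezafibrate high, on 0 reads.

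Some gate differences were larger than counting error. Most stellate, Kupffer and endothelial markers were also higher in the high gate. Above the positive gate stood 10 of 10 stellate, 8 of 8 Kupffer and 8 of 9 endothelial markers, with median log2 differences of 0.74, 0.38 and 0.31. Above the negative gate stood 10 of 10, 6 of 8 and 9 of 9. Of cholangiocyte markers 3 of 5 stood above the positive and 2 of 5 above the negative gate. Of lymphocyte and neutrophil markers 0 of 1 did in either comparison. The median of all genes analysed was 0.00 and -0.02. Only 1 stellate, 0 Kupffer and 1 endothelial marker reached the minimum mean, so most of these markers rest on few reads. The part of these markers in the values of the high gate was not tested. Qprt in bezafibrate high was 1.31-fold the positive gate (1.17 to 1.48) and 1.23-fold the negative gate (1.10 to 1.37). Kmo was 0.816-fold in bezafibrate positive relative to negative (0.737 to 0.904) and 0.776-fold in bezafibrate high relative to negative (0.703 to 0.856). Afmid was 1.12-fold in bezafibrate high relative to positive (1.02 to 1.23). Nampt was 0.821-fold (0.698 to 0.966) and Nadsyn1 1.22-fold (1.01 to 1.48) in bezafibrate high relative to negative. Kynu was 0.891-fold in bezafibrate high relative to positive (0.820 to 0.969) and 0.999-fold in control positive relative to negative (0.918 to 1.09). Haao was 1.08-fold in bezafibrate positive relative to negative (1.01 to 1.16) and 0.901-fold in control positive relative to negative (0.819 to 0.992). These intervals cover counting error only, and without replicates the spread between livers is unknown.

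**Figure D4:**
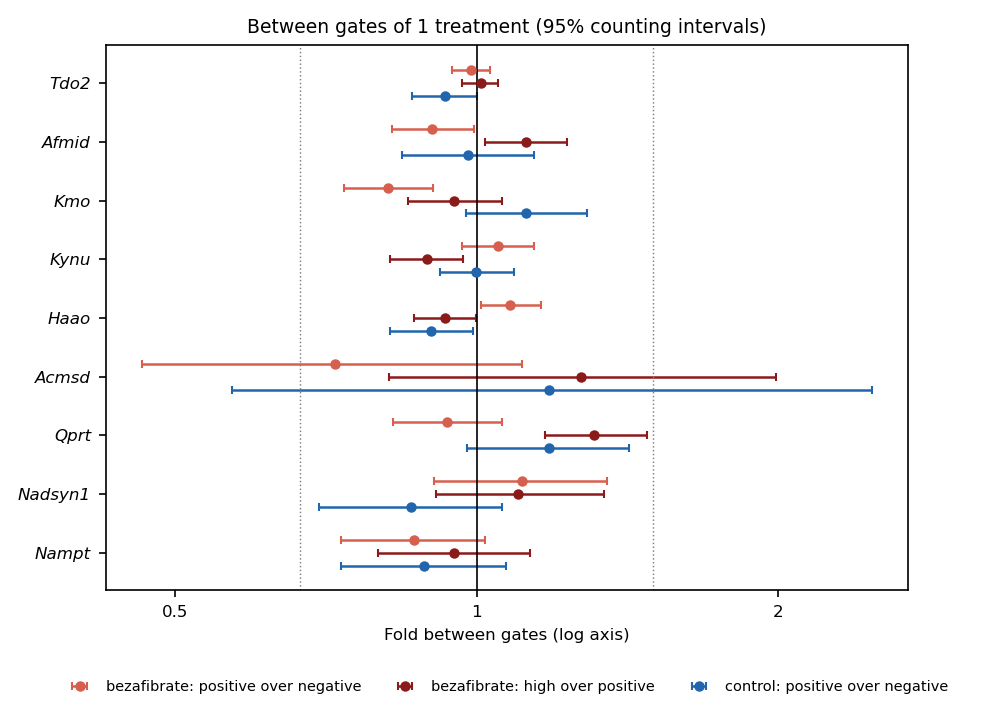
Fold between gates on a log axis for 9 of the 10 genes, with 95% counting intervals: bezafibrate positive over negative, bezafibrate high over positive and control positive over negative; dotted lines mark 1.5-fold. No point passes a dotted line, and Qprt in bezafibrate high over positive, at 1.31, is the farthest right.

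Lists of genes around the pathway are counted over all members with a row, whether or not they passed the minimum. The negative gate's count, median or fold stands before the positive gate's. The lists were chosen with earlier results of these data known, so the shares of all genes beside them are no independent check. The list of the glutarate branch below Acmsd holds 9 genes. Most of them are shared with lysine breakdown, the citric acid cycle or fatty acid oxidation. Among them Hykk encodes hydroxylysine kinase and is no step below Acmsd itself. In bezafibrate 7 of the 9 were at least 1.5-fold higher in each gate and 0 lower, against the 22.6% and 15.7% of all genes. Their median difference was 0.74 in the negative and 0.69 in the positive gate. All 9 had every bezafibrate library above both control libraries, as did 35.7% of all genes. With totals without Rn45s, 3 of the 9 reached 1.5-fold higher in each gate, against 14.4% and 12.0% of all genes. Aldh8a1, the dehydrogenase that follows Acmsd, had 157.0, 143.0 and 147.5 in the bezafibrate libraries, against 87.95 and 99.99 in control positive and negative. Gcdh, glutaryl-CoA dehydrogenase, had 194.9, 177.5 and 191.3, against 110.2 and 113.3. Dld, the shared subunit of the oxoacid dehydrogenases, had folds of 2.66 (2.08 to 3.43) and 2.13 (1.65 to 2.77) in the negative and positive gates, and Hadh of 2.40 and 1.82. Dlst was 1.45-fold and 1.12-fold, and Hykk 1.21-fold and 1.09-fold.

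Tryptophan uptake and kynurenine side paths, with 12 of 14 listed genes in the table, held 4 genes at least 1.5-fold higher under bezafibrate and 5 lower when the negative gates were compared. For the positive gates these counts were 4 and 1. All genes had 22.6% higher and 17.5% lower between negative gates, and 15.7% and 11.6% between positive gates. With column totals the list's counts were 4 and 3, and 6 and 1, beside 32.2% and 10.4%, and 25% and 5.7%, of all genes. The medians were 0.18 and 0.50. Aadat, an aminotransferase that makes kynurenic acid, had 53.45, 33.26 and 36.37 in bezafibrate negative, positive and high, against 9.701 and 10.06 in control positive and negative. Its folds were 5.31 (3.94 to 7.30) and 3.43 (2.47 to 4.84). Ido2, a relative of the indole-opening enzymes, had folds of 2.41 (2.04 to 2.84) and 2.21 (1.85 to 2.65). Got2, the mitochondrial aspartate aminotransferase, was 2.57-fold and 1.90-fold higher. Ddc, the aromatic amino acid decarboxylase, had 94.78, 73.45 and 93.13, against 177.4 and 181.3. Slc3a2, the heavy chain of amino acid exchangers, was 0.5-fold (0.449 to 0.558) and 0.813-fold (0.725 to 0.912).

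NAD salvage and the final steps, with 16 of 17 listed genes, held 6 at least 1.5-fold higher and 4 lower between negative gates, and 3 higher and 2 lower between positive gates. With column totals these became 9 and 1, and 5 and 1, and without Rn45s 2 and 6, and 0 and 2. The shares of all genes were 22.6% and 17.5%, and 15.7% and 11.6%, as deposited. They were 32.2% and 10.4%, and 25% and 5.7%, with column totals, and 14.4% and 29.1%, and 12.0% and 16.2%, without Rn45s. The medians were 0.49 and -0.03. Nmrk1, the nicotinamide riboside kinase, had 19.60, 22.85 and 23.32 in bezafibrate negative, positive and high, against 42.68 and 49.48 in control positive and negative, at 0.396-fold (0.320 to 0.488) and 0.535-fold (0.429 to 0.667). Slc25a51, the mitochondrial NAD carrier, had 143.3, 167.4 and 163.5, against 217.1 and 237.3. Aspdh had 35.19, 31.84 and 33.58, against 55.19 and 57.28. Pnp, the purine nucleoside phosphorylase, had folds of 2.04 (1.59 to 2.63) and 1.53 (1.18 to 1.99). Apoa1bp, the older symbol of the NAD(P)HX epimerase gene, was 2.49-fold (1.70 to 3.72) and 1.19-fold (0.807 to 1.76).

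Of 19 NAD-consuming genes, sirtuins and poly(ADP-ribose) polymerases among them, 1 was past 1.5-fold upward and 3 downward between negative gates, and 0 and 3 between positive gates. These stand beside 22.6% and 17.5%, and 15.7% and 11.6%, of all genes. The counts downward are near those shares, and the counts upward, 1 and 0, lie below them. For 11 of the 19 all 3 bezafibrate libraries lay below both control libraries, beside 33.8% of all genes. For 4 they lay above, beside 35.7%. With totals without Rn45s 9 were lower between negative gates, beside 29.1% of all genes, and with column totals 0, beside 10.4%. The medians were -0.35 and -0.23. Sirt3, the mitochondrial deacetylase, had 40.26, 44.29 and 47.97 in bezafibrate negative, positive and high, against 57.34 and 60.36 in control positive and negative. Sirt7 had 44.39, 50.12 and 54.36, against 59.07 and 55.43. Sirt6 was 0.544-fold (0.339 to 0.867) and 0.412-fold (0.233 to 0.713), and Parp2 0.553-fold (0.353 to 0.861) and 0.544-fold (0.341 to 0.862). Parp9 was 1.40-fold and 1.41-fold, and Sirt5 2.18-fold (1.30 to 3.78) and 1.06-fold (0.630 to 1.79).

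Nicotinamide methylation and clearance, with 11 of 13 listed genes, held 3 at least 1.5-fold higher and 2 lower between negative gates, and 2 higher and 1 lower between positive gates, near the 22.6% and 17.5%, and 15.7% and 11.6%, of all genes. The medians were 0.09 and -0.05. Aox1, an aldehyde oxidase that oxidises methylated nicotinamide, had 88.91, 96.77 and 96.07 in bezafibrate negative, positive and high, against 310.9 and 282.1 in control positive and negative. It was 0.315-fold (0.287 to 0.346) and 0.311-fold (0.283 to 0.342). Aox3, another aldehyde oxidase of the list, stood above Aox1 in every library, at 1151, 1092 and 1141, against 1305 and 1431. Mat1a, which makes the methyl donor used by Nnmt, had 1888, 1983 and 2009, against 2482 and 2443. Gamt and Pemt, other methyltransferases, were 4.67-fold and 1.90-fold higher in the negative gate and 2.82-fold and 1.64-fold in the positive gate. Cyp2e1, a cytochrome P450, was 2-fold and 1.28-fold higher, and Slc47a1, an exporter of organic cations, was 0.659-fold and 0.843-fold. For scale, the median of 14 PPARalpha reference targets was 1.21 in the negative and 0.78 in the positive gate, with 8 genes past 1.5-fold upward and 3 downward between negative gates, and 8 and 2 between positive gates. Ehhadh, a peroxisomal oxidation enzyme, had folds of 24.9 and 14.5, and Cyp4a10, a fatty acid hydroxylase, of 13.5 and 7.98. Fgf21, a liver hormone, had folds of 0.255 (0.148 to 0.424) and 0.379 (0.233 to 0.603), and Pdk4, a kinase that inhibits pyruvate dehydrogenase, of 0.448 (0.269 to 0.737) and 0.444 (0.275 to 0.708).

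**Figure D5:**
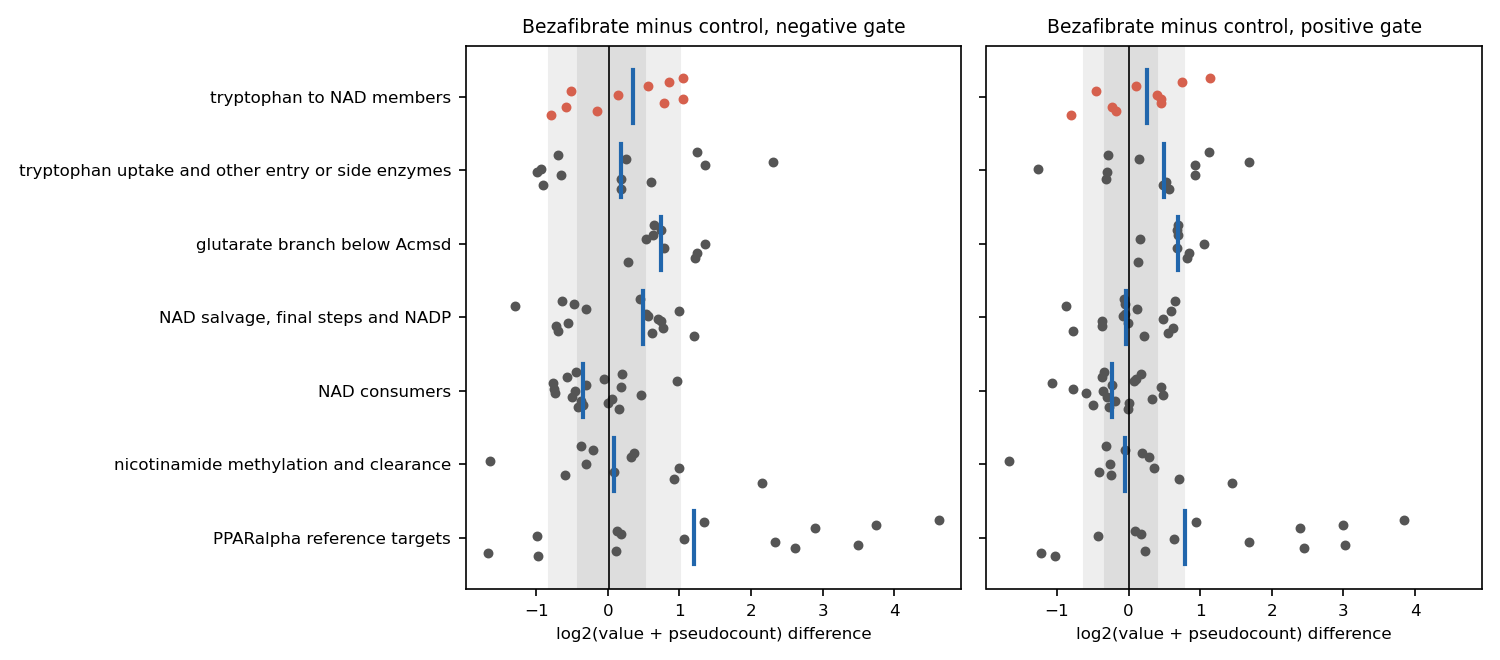
Difference of log2(value + pseudocount), bezafibrate minus control, for each gene of the pathway (top row, red) and of 6 other lists (grey), in the negative gate (left) and the positive gate (right). Blue bars are list medians, the black line is the median of all genes analysed, and the dark and light bands hold the middle 50% and 80% of them; the 9 glutarate branch genes all lie to the right of 0.

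The genes most like Acmsd over the 5 libraries, by root mean square distance of centred log2 values, were Arl1 at 0.026, H2-T10 at 0.039 and Uqcrq at 0.039. Acmsd has only 16 to 59 reads per library. Its counting error is wider than these distances, so which genes come nearest to it is uncertain. Uqcrq, a subunit of respiratory complex III, had 80.11, 62.89 and 72.22 in bezafibrate negative, positive and high, against 43.33 and 36.96 in control positive and negative. Those most like Tdo2 were Gypc at 0.032, Lbp at 0.044 and Psma5 at 0.050. Lbp, the lipopolysaccharide-binding protein of plasma, had 176.9, 162.0 and 177.2, against 74.37 and 82.33. All these genes share the 5 libraries and their scaling.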

How the data were processed

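RNA came from hepatocytes sorted into 5 libraries, 1 per group by the labels. The submitters' processing notes name the tools RSEM, edgeR, Bowtie2 and Trimmomatic 0.36 and the build mm10; their roles, the annotation and the normalization were not given in the sources read. The authors deposited gene-level signal; 100% of values in each library were whole multiples of the worth of 1 read (tolerance 0.001 reads), which gave the reads. Per the labels' protocols the libraries were depleted of ribosomal RNA and strand-specific.

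Differences are of log2(value + 1.0035), which understates those of low genes; 1.0035 is 1 millionth of the mean column total. Background shares cover the 8973 genes with a mean of at least 5.02. Folds are plain ratios with exact Clopper-Pearson 95% intervals, ratios of ratios have log-scale Poisson intervals, and a 0 allows 3 reads. They cover counting error only, as reads lacking molecular identifiers are not independent molecules. Lengths, coordinates and overlaps came from GENCODE M21 (GRCm38, also called mm10), in which 95.8% of symbols matched 1 gene; lengths are of the APPRIS principal transcript. Outside the pathway, the text names of each list the 2 genes highest per kilobase and the 2 of largest mean difference in each direction. Of the PPARalpha targets only those with the largest differences are named. Aox3 is named besides, to stand beside Aox1. The promoter of 1 gene is not reported here. The members and lists were chosen with earlier results of these data known. An additive fit of gate and treatment (limma 3.58.1, R 4.3.3) called 4064 of 8973 genes for treatment at an adjusted p of 0.05, and edgeR 4.0.16 on the recovered reads called 4106. With 1 residual degree of freedom it is no test between replicates, so no p is given for any gene. Alternatives were other scalings, pseudocounts, filters and a 2-fold threshold. The steps were tested on simulated data. Computation used scipy 1.17.1 under Python 3.11.15.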

Additional observations from a re-analysis of the deposited data

Results flagged for a closer look

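For 3 genes the positive gate lay on opposite sides of the negative gate under bezafibrate and in control. In these the ratio of the folds differed from 1 by more than counting error. How many of all genes met the same rule was not counted, so the 3 cannot be set against a background. The gate folds themselves held 1 for Qprt under bezafibrate (0.824 to 1.06) and in control (0.979 to 1.42), and for Kmo in control (0.976 to 1.29), so these sides are within counting error. The difference was not tested, since each gate and treatment has 1 library. Kmo was 0.816-fold in the positive relative to the negative gate under bezafibrate and 1.12-fold in control, a ratio of 0.729 (95% counting interval 0.616 to 0.863). Haao was 1.08-fold and 0.901-fold, a ratio of 1.2 (1.07 to 1.35). Qprt was 0.934-fold and 1.18-fold, a ratio of 0.791 (0.635 to 0.986), and its bezafibrate value turned to 1.03 with totals without Rn45s. Over the scalings tried the ratios lay between 0.716 and 0.807 for Kmo, 1.18 and 1.33 for Haao, and 0.779 and 0.873 for Qprt. Rn45s held 18.5% of reads in bezafibrate positive and 10.5% in bezafibrate negative, against 34.8% in control positive and 36.3% in control negative, and its part in these ratios was not tested.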

How the results depend on the processing

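In the negative gate the median of the 10 genes for bezafibrate minus control moved to 0.58 with column totals and to 0.09 with totals without Rn45s, a scaling added after seeing the data. The median of all genes moved to 0.25 and -0.22 under the same scalings. The count of the 10 genes at least 1.5-fold lower in the negative gate was 1, beside 17.5% of all genes analysed. It became 2 with median-of-ratios size factors (18.3% of all genes) or a pseudocount 0.5 times as large (18.2%). It became 3 without the 100 highest genes (21.2%) or without Rn45s in the total (29.1%). It became 0 with a pseudocount 5 times as large (13.2%), a filter at 20 (18.2%) or a 2-fold threshold (5.9%). In the positive gate the count became 0 under the last 3 settings, beside 8%, 11.5% and 2.9% of all genes. Genes at least 1.5-fold higher in the positive gate became 5 with column totals, beside 25% of all genes. At 2-fold the higher counts were 2 in the negative and 1 in the positive gate, beside 10.2% and 4.9%. Nnmt gave the 1 lower gene between bezafibrate high and positive, and between high and negative, with a pseudocount 0.5 times as large. The genes all of whose bezafibrate libraries lay above control were 4 without Rn45s in the total (Tdo2, Afmid, Acmsd and Qprt) and 6 under each other scaling. Those below were between 2 and 4. Without the bezafibrate high library those above were 6. As deposited, 35.7% of all genes analysed lay above and 33.8% below. Of 468 values of single genes under alternatives, 441 stayed inside their counting interval, 27 moved out of it and 0 with a 1.5-fold difference changed sign. The 441 include all values under no filter and under the filter at 20. A filter cannot change the value of a single gene, so those stayed by construction. The additive fit called between 3972 and 4106 of 8973 genes, and 4444 of 13966 with no filter. The cause of these shifts was not tested, except that the filter at 20 leaves Acmsd and Nnmt out. No paired analysis was possible because each group has 1 library and the labels give no replicate numbers; the additive fit matches libraries by gate only. Depth limits Acmsd and Nnmt, with at most 59 and 7 reads per library.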
